A study of Mus musculus with 9 samples.

Results

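Gene expression in SR59230A-treated mice with experimental autoimmune encephalomyelitis (EAE) was compared with that in naive mice, over every gene of the deposited table and 6 of the 9 libraries of the study, 3 on each side. The cells were sorted from bone marrow as lineage-negative, Sca1-positive and cKit-positive (LSK) cells of C57BL/6 mice. The naive mice (libraries titled N3, N4 and N5) had received neither immunization nor drug. The treated mice (S1, S2 and S3) had been immunized with complete Freund's adjuvant and residues 35 to 55 of myelin oligodendrocyte glycoprotein (MOG), and for the next 3 days were given SR59230A, an antagonist of the β3-adrenergic receptor. A further 3 mice at 3 days after immunization without the antagonist (EAE) are used where a value must be set beside them. The labels name no group given adjuvant alone, no naive mice given SR59230A and no vehicle. In treated against naive mice, adjuvant, peptide, antagonist and the act of dosing therefore cannot be told apart. Only treated against EAE sets the antagonist and its dosing apart from the immunization. The labels give no age, sex, dose or route and no clinical score, and the 3-day time comes from them. Within each group the libraries are numbered as replicates 1 to 3 in the order in which they were deposited.

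The LSK fraction holds blood stem cells and the multipotent progenitors that follow them. Bacterial products such as the mycobacteria in complete adjuvant are known to drive marrow progenitors toward granulocytes and monocytes, with C/EBP and PU.1 transcription factors at the head of that programme. Interferons are known to raise Sca1 on progenitors and to bring stem cells out of rest. Sympathetic nerves reach the marrow, and β3-adrenergic receptors are best known there on stromal cells, where noradrenaline lowers retention signals such as CXCL12.

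In treated against naive LSK cells granulocyte and monocyte genes rose, by up to 31.2-fold for Ms4a3, and 16 of 35 stem-cell genes fell. By smaller amounts rose 5 of 8 interferon-γ-inducible GTPase, 16 of 25 unfolded protein response and 16 of 31 ribosome biogenesis genes, and 6 of 24 lymphoid-primed genes fell. Of 13018 tested genes, 1932 (14.8%) passed the test, 1332 (10.2%) higher and 600 (4.61%) lower in treated mice. The test was limma-trend on log2(scaled value + 1) with Benjamini-Hochberg adjustment over all tested genes and a threshold of 0.05, and "rose" and "fell" are used only of genes that passed it. Most changes were small: 783 of the rises and 243 of the falls were under 1.5-fold. At least 2-fold were 234 rises (1.8% of tested genes) and 169 falls (1.3%), and 19 rises and 2 falls were at least 8-fold. All 3 treated libraries lay outside the range of the naive libraries for 6356 genes (48.8%), 3441 (26.4%) above it and 2915 (22.4%) below it. The median log2 fold change over all genes was 0.01 with a median standard error (SE) of 0.15, the values beside which the gene groups below are set. That background varies with level. At a mean of at least 500 the median was 0.13 and 22.6% of genes were called. Under a mean of 20 the median was -0.54 and 4.36% were called. No group was tested against genes of like level. These are bulk libraries, in which fewer cells of a type and less RNA per cell cannot be told apart.

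**Figure D1:**
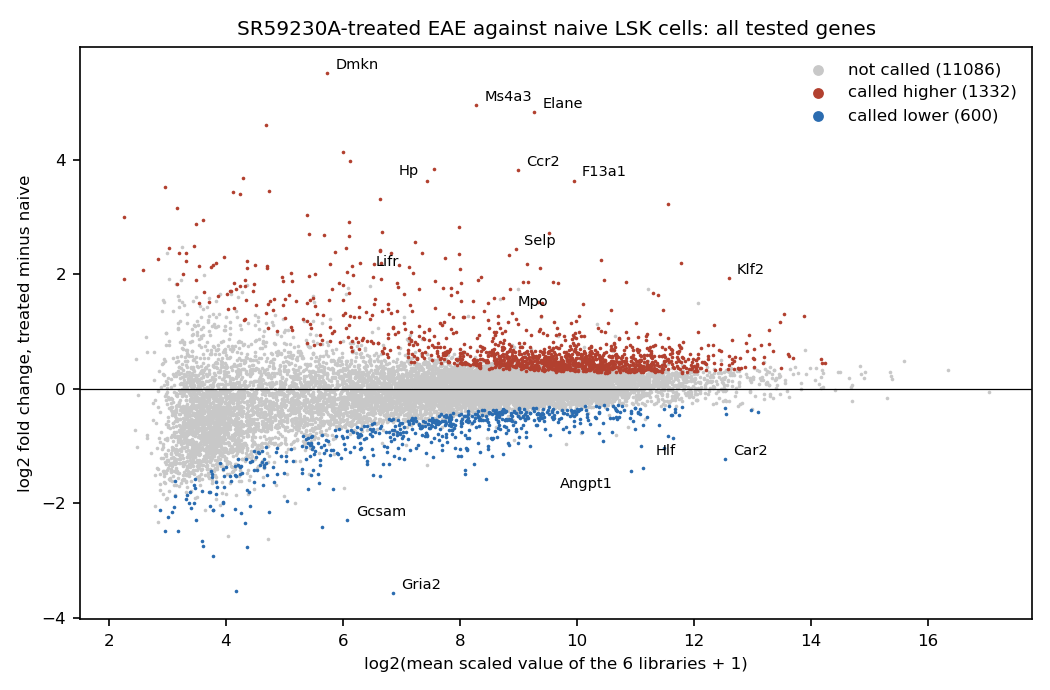
Each point is 1 of 13018 tested genes, placed by its mean scaled value in the 6 naive and treated libraries (horizontal, log2) and its log2 fold change in treated minus naive mice (vertical). The 1332 genes called higher are red and the 600 called lower blue. Ms4a3, Elane and Dmkn lead the rises and Gria2 the falls, and most calls sit within 1 log2 unit of 0.

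The split between rises and falls rests on the scaling. With median-of-ratios factors 68.9% of the calls were higher. Left unscaled, the values gave 1073 calls (489 up and 584 down, 45.6% higher), with upper-quartile factors 1789 (835 and 954, 46.7%) and with library sums 1920 (654 and 1266, 34.1%). Without scaling and with library sums the median of all genes moved to -0.11 and -0.14, so a change near 0.1 on the log2 scale has no firm direction. No gene called here changed sign under those scalings. Level also mattered: of 4568 genes with a mean of at least 500, 882 rose and 151 fell (median 0.13), and of 2200 genes with a mean under 20, 28 rose and 68 fell (median -0.54). Chemosensory receptor genes, which have no known role in blood progenitors, held 0.149% to 0.178% of the naive, 0.105% to 0.119% of the EAE and 0.0785% to 0.0982% of the treated libraries, so that low-level signal moved with the groups. With that share as a covariate 18 genes were called and the SE of the difference was 3.63 times as large, and its part in the results was not tested further. A single library had weight as well. The deposited values lack 2 of the directions along which the libraries could vary, and both were covariates in the fit. Without treated replicate 2, 148 genes were called, and without naive replicate 1, 407. The counts were 1080 without treated replicate 1 and 758 without treated replicate 3. Without treated replicate 2 or naive replicate 1 the SE of the difference was 1.61 and 1.34 times as large by construction, because the missing directions lie partly along those libraries. With the 1 direction kept that has no weight on the library left out, the counts were 1370 and 1230.

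**Figure D2:**
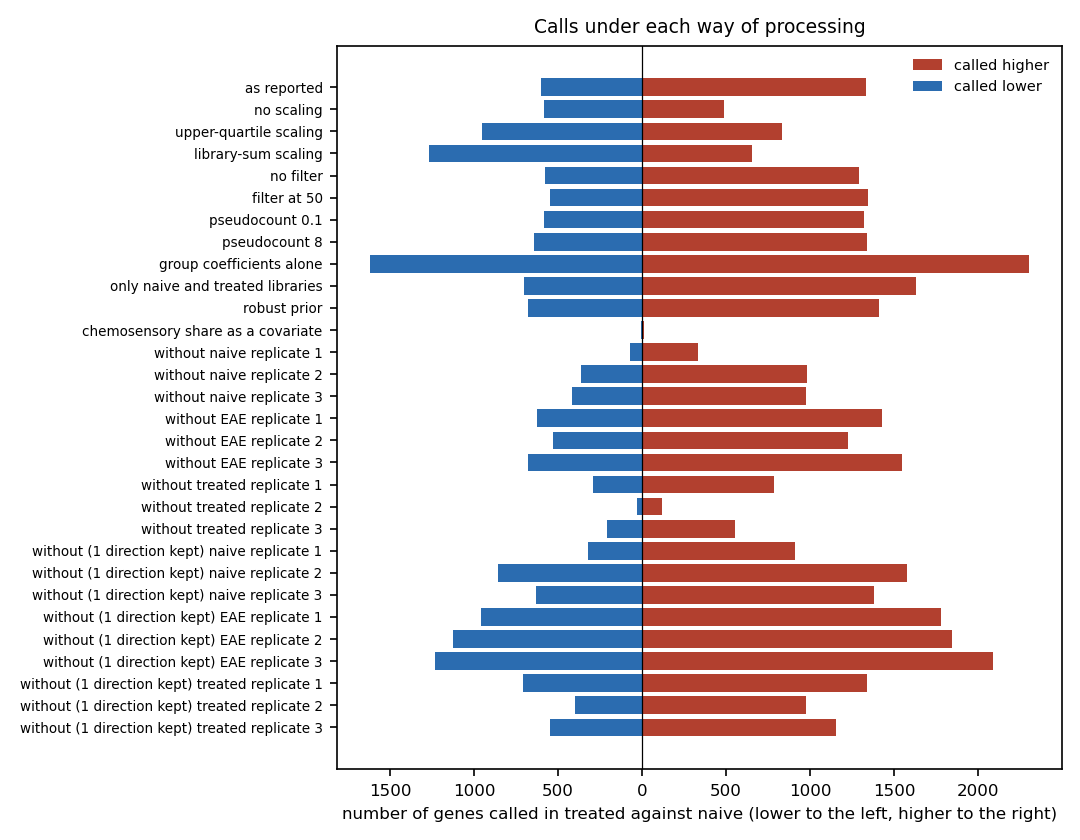
Bars give the number of genes called lower (blue, left) and higher (red, right) in treated against naive mice under each way of processing. The reported analysis calls 1332 higher and 600 lower, library-sum scaling 654 and 1266, and the fit without treated replicate 2 calls 121 and 27.

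The 9 libraries summed to between 8641735 and 10387955 in deposited values. These whole numbers look adjusted and were not taken as read counts, so they give neither the depth nor a counting error. On the first principal component, with 45.6% of the variance, naive libraries lay between -42.3 and -33.1 and treated libraries between 18.3 and 24.7. All further values are after median-of-ratios scaling, in the deposited unit. The genes of the gate's 2 positive markers were abundant on both sides. Kit, the stem cell factor receptor of the cKit gate, read 7235, 6845 and 6547 in the naive and 5158, 4949 and 5042 in the treated libraries and fell by 0.45 ± 0.09 on the log2 scale (SE, limma adjusted p = 0.00961). Ly6a, which encodes Sca1, read 1439, 1741 and 1412 in the naive and 2539, 2422 and 2339 in the treated libraries and rose by 0.68 ± 0.12 (limma adjusted p = 0.00335). For both genes the 2 groups did not overlap, and whether the gate held the same cells in both was not tested. Cd34 (-0.26 ± 0.10), Flt3 (-0.27 ± 0.10) and Slamf1 (0.25 ± 0.19), 3 further surface genes that divide LSK cells, did not pass. With upper-quartile or library-sum scaling Cd34 and Flt3 passed as lower in treated mice, and Slamf1 did not pass. Without naive replicate 1 or treated replicate 2 neither Kit nor Ly6a passed (limma adjusted p up to 0.375), and with 1 direction kept both passed whichever library was left out. Of 10 lineage markers that the gate should exclude, 6 could be tested, and Itgam and Ncr1 rose. The summed level of the lineage markers was 771 to 1163 in the naive and 1302 to 1858 in the treated libraries. Itgam held 560 to 789 and 1069 to 1576 of it, and Cd4, the next highest, 133 to 211 and 134 to 180. Beside it, 7 genes of LSK cells (Kit, Ly6a, Cd34, Flt3, Slamf1, Cd48 and Ptprc) summed to 24445 to 25552 in the naive and 21206 to 22203 in the treated libraries.

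Granulocyte-monocyte progenitor genes rose several-fold. Ms4a3, which marks progenitors committed to granulocytes and monocytes, read 15.2, 20.8 and 19.7 in the naive and 663, 509.5 and 637 in the treated libraries, a rise of 4.96 ± 0.15 on the log2 scale, or 31.2-fold (limma adjusted p = 1.11e-08). The azurophil granule list holds mostly the first granule contents that such progenitors make. Of 13 tested 9 rose and none fell, with a median of 1.58. Calr, an endoplasmic reticulum chaperone gene on that list, was among the rises. Elane, which encodes neutrophil elastase, read 30.4, 66.3 and 33.8 in the naive and 1257, 1051 and 1259 in the treated libraries and rose 28.6-fold (4.84 ± 0.25). No naive library came near the treated range. Ctsg (cathepsin G) read 470.3, 740.1 and 568 in the naive and 5607, 5140.2 and 5654 in the treated libraries and rose 9.42-fold, and Prtn3 (proteinase 3) read 1098, 1368 and 1348 in the naive and 5814, 5661 and 5840.2 in the treated libraries and rose 4.58-fold. Mpo, which encodes myeloperoxidase, read 171, 222 and 245 in the naive and 597, 748 and 787 in the treated libraries and rose 3.36-fold. In each of these enzymes all treated libraries were above all naive ones. Hp (haptoglobin) rose 12.4-fold and Cst7, a cysteine protease inhibitor, 3.00-fold. The summed level of the 6 progenitor markers, all called higher, was 1854 to 2465 in the naive and 13460 to 14542 in the treated libraries. Lyz2, Serpinb1a, Fcnb and Srgn, also on the granule list, had positive values and did not pass. Of the 7 called genes with a value here, only Mpo was lost when single libraries were left out, without treated replicate 2 (limma adjusted p = 0.0879).

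The promoters of the 4 leading granule enzymes are shown because these genes rose together and PU.1 is a known activator of granule genes. RefSeq windows on GRCm38.p6, from 250 bases before to 50 after the start site, were searched on both strands for GAGGAA, a PU.1-type ETS core, and for TTGCNNAA, a C/EBP-type motif. The 250 bases before each start site follow, 5′ to 3′ on the gene's strand, with GAGGAA or its reverse complement in capitals.
Elane (chr10:79886062-79886311, plus strand): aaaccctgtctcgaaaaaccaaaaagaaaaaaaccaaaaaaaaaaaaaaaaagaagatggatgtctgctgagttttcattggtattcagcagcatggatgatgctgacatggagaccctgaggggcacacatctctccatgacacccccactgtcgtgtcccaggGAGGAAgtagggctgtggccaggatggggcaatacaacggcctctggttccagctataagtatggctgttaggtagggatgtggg
Prtn3 (chr10:79879417-79879666, plus strand): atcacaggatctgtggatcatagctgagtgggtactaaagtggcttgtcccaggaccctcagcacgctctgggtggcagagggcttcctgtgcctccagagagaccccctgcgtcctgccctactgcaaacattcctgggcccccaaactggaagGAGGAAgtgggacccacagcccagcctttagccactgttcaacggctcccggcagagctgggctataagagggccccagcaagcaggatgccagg
Ctsg (chr14:56102575-56102824, minus strand): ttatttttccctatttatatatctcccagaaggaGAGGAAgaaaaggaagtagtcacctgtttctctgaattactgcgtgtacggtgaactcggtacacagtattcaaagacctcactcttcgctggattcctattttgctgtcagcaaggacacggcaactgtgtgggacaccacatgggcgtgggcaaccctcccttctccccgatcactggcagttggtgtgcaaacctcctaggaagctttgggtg
Mpo (chr11:87793534-87793783, plus strand): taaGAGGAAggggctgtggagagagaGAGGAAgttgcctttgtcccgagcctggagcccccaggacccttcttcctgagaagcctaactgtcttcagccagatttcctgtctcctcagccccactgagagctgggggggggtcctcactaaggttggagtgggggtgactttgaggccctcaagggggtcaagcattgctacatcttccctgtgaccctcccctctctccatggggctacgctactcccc
The match began 85 bases before the start site in Elane, 95 in Prtn3 and 216 in Ctsg, and Mpo held 2, at 247 and 224. Of 11 windows found for 10 of the 13 tested granule genes, 5 held GAGGAA (45.5%), against 28.3% of all 32851 windows and 27.1% of those of tested genes. The C/EBP letters were in 2 of the 11 (18.2%, Cst7 and Fcnb) against 10.8% of all windows. Calr, Cst7, Fcnb, Lyz2 and Srgn had no GAGGAA in their windows, and Calr and Cst7 rose. Among interferon-γ-inducible GTPase genes 3 of 7 windows held GAGGAA (42.9%), so the share is not particular to granule genes. A match is a description of letters and not a bound site.

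Most of the tested monocyte genes and myeloid receptors rose. Ccr2, the chemokine receptor that takes monocytes out of the marrow, read 58.8, 56.9 and 89.2 in the naive and 909, 877 and 1072 in the treated libraries and rose 14.1-fold (3.82 ± 0.14, limma adjusted p = 6.8e-08). F13a1, which encodes the coagulation factor XIII subunit made by monocytes, read 146, 153 and 137 in the naive and 1981, 1491 and 2004 in the treated libraries and rose 12.5-fold. In both genes each treated library was several times above the highest naive one. Of 14 tested monocyte genes 10 rose and none fell (median 1.51), among them Cd14, the lipopolysaccharide co-receptor (2.69 ± 0.30), Ms4a6c (1.86 ± 0.13) and Cx3cr1, the fractalkine receptor (1.48 ± 0.34). The summed level of the 5 monocyte markers was 540.2 to 692 in the naive and 3743 to 4495 in the treated libraries, and the part of any mature monocytes in these rises was not tested. Of 18 tested receptors and surface markers of granulocyte-monocyte progenitors 12 rose and 1 fell (median 1.28). The receptor genes Clec5a, Igsf6 and Trem3 rose by 4.14 ± 0.24, 3.84 ± 0.28 and 3.32 ± 0.29, and the inhibitory Fc receptor gene Fcgr2b 3.40-fold. Growth factor receptors were not alike: Csf1r, for M-CSF, read 68.9, 47.4 and 113 in the naive and 337, 351 and 364 in the treated libraries and rose by 2.28 ± 0.25, and Csf2rb, the shared subunit for GM-CSF, IL-3 and IL-5, by 1.51 ± 0.18. Csf3r, the G-CSF receptor, read 1106, 1208 and 1179 in the naive and 1430.1, 1433 and 1377 in the treated libraries and did not pass (0.28 ± 0.10, limma adjusted p = 0.0705). Cd93 was the member that fell, by 0.33 on the log2 scale. Left-out libraries ended calls of Cx3cr1 (naive replicate 1, naive replicate 3, treated replicate 1 or treated replicate 2) and of Csf2rb (treated replicate 2), with limma adjusted p up to 0.264.

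Among 17 myeloid transcription factor genes 8 rose and none fell (median 0.33). Irf8, which directs monocyte and dendritic cell fate, read 1194, 1404 and 1283 in the naive and 4792, 3932 and 3439 in the treated libraries and rose 3.12-fold (1.64 ± 0.15), with no overlap between groups. Cebpa, needed to enter the granulocyte-monocyte path, read 366, 404 and 428 in the naive and 681, 707 and 703 in the treated libraries and rose by 0.81 ± 0.11. Cebpd, a C/EBP factor induced in inflammation, rose by 1.32 ± 0.19 from a low level (69.9, 54.0 and 66.7 in naive libraries). Klf4, a monocyte factor, read 208, 414 and 192 in the naive and 986, 627 and 425 in the treated libraries and rose by 1.33 ± 0.32, and treated replicate 1 was well above the other treated libraries. Spi1, which encodes PU.1, rose by 0.31 ± 0.09 and Gfi1, a granulocyte repressor, by 0.34 ± 0.10. With other scalings neither passed (limma adjusted p up to 0.347), and the list had 4 rises and up to 2 falls (median 0.18 to 0.23). Cebpe, Cebpb and Runx1 did not pass. Of the 6 calls named here, 3 did not pass without naive replicate 1, 2 without naive replicate 2, 2 without naive replicate 3, 1 without EAE replicate 2, 3 without treated replicate 1, 4 without treated replicate 2 and 2 without treated replicate 3 (limma adjusted p up to 0.69). With 1 direction kept up to 3 were lost, all from Gfi1, Klf4 and Spi1, and Klf4 also ended with a robust prior (limma adjusted p = 0.165) and Gfi1 without the filter (0.0503).

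**Figure D3:**
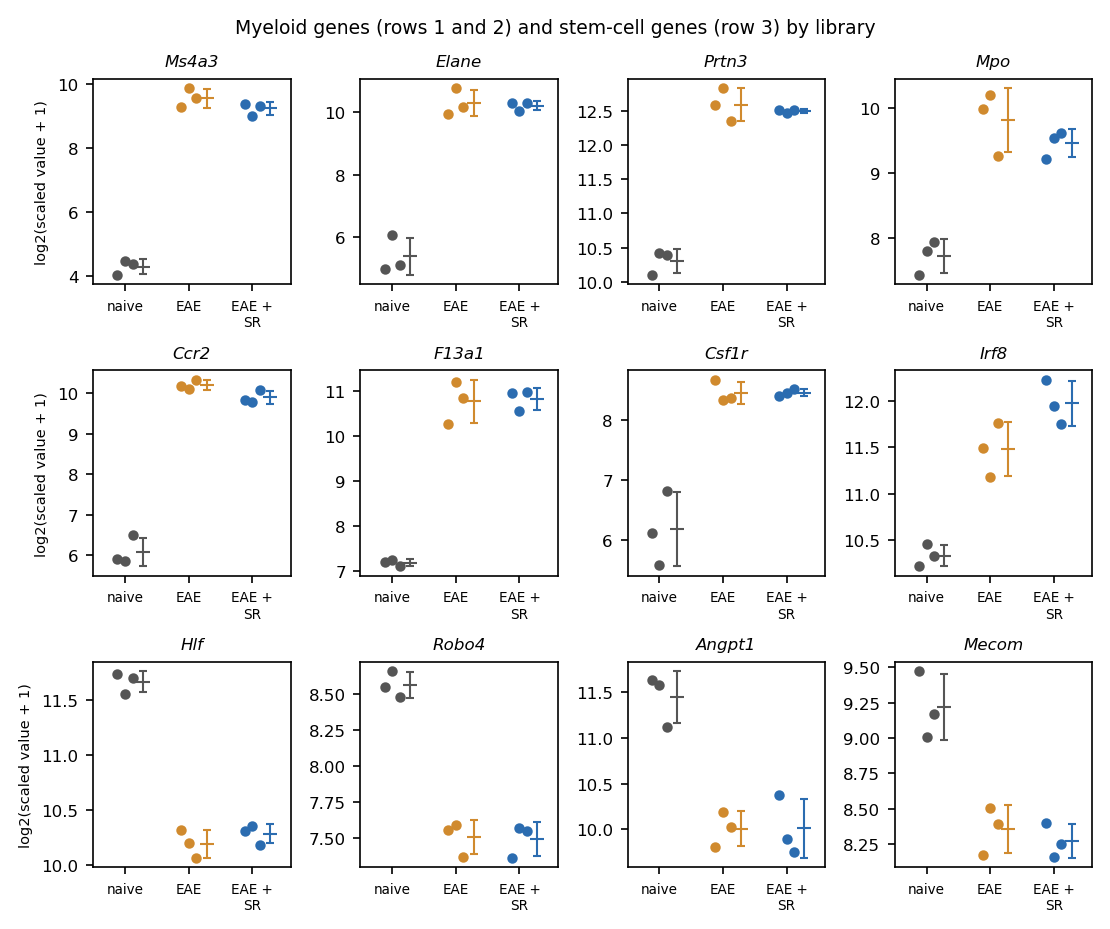
Points are the single libraries of naive, EAE and SR59230A-treated EAE mice on log2(scaled value + 1), and the bar beside them is the mean with its standard deviation (n = 3). Each panel has its own vertical range, which does not start at 0. In the 2 upper rows every treated library lies above every naive one and in the lower row below.

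Genes of mature neutrophils, a cell the gate should exclude, rose in part, with wide spread. Of 18 tested 7 rose and 1 (Padi4) fell, with a median of 1.13. S100a8, an abundant cytosolic protein gene of neutrophils, read 642, 482 and 1306 in the naive and 1626, 3238 and 3737 in the treated libraries and S100a9, its partner, 1002, 756 and 1935 in the naive and 2312, 4301 and 4786 in the treated libraries. Both rose (1.87 ± 0.54 and 1.68 ± 0.51, limma adjusted p = 0.0403 and 0.0489). Treated replicate 1 was the lowest treated library and naive replicate 3 the highest naive one for both genes. The secondary granule genes Ltf, Camp and Ngp did not pass: Ngp read 935, 645 and 1774 in the naive and 2090.2, 4035 and 4784 in the treated libraries (1.75 ± 0.56, limma adjusted p = 0.0579). Itgam, the CD11b integrin, and Anxa1 (annexin) had smaller errors (0.98 ± 0.15 and 0.68 ± 0.12). Lcn2 (lipocalin) rose by 2.33 ± 0.45 and Ifitm6 by 2.56 ± 0.42. The summed level of 9 mature neutrophil markers was 2313 to 6151 in the naive and 7012 to 15645 in the treated libraries, and their part in other myeloid rises was not tested. Of 6 NADPH oxidase subunits 3 rose: Cybb, the catalytic gp91phox, read 85.1, 85.3 and 108 in the naive and 219.7, 326 and 425 in the treated libraries and rose 3.37-fold, and Ncf4 and Ncf1 rose by 0.55 ± 0.11 and 0.49 ± 0.14. Cyba and Rac2 did not pass, and 1 to 2 of the list rose with other scalings. Of the 9 calls named here, 7 did not pass without naive replicate 1, 3 without naive replicate 2, 9 without treated replicate 2 and 5 without treated replicate 3 (limma adjusted p up to 0.922). If 1 direction was kept, at most Ncf1, S100a8 and S100a9 were lost, other scalings ended these 3 or Ncf4 (limma adjusted p up to 0.191), and a robust prior ended S100a8, S100a9, Lcn2 and Ifitm6 (up to 0.266). S100a9 ended with a filter at 50 or a pseudocount of 0.1 too (up to 0.0532).

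Small sets of genes of other effector lineages rose from low levels. Of 8 tested natural killer cell genes 5 rose (median 1.64). Ncr1, which encodes NKp46, read 1.01, 0 and 1.88 in the naive and 15.3, 15.3 and 14.4 in the treated libraries, Klrk1 (NKG2D) 3.04, 6.63 and 2.82 in the naive and 29.5, 19.4 and 15.5 in the treated libraries, and Klrb1c (NK1.1) 29.4, 29.4 and 38.5 in the naive and 99.7, 106 and 107 in the treated libraries, and all 3 rose without overlap. Il2rb, the IL-2 and IL-15 receptor β chain, read 18.2, 38.9 and 22.5 in the naive and 82.4, 108 and 92.2 in the treated libraries and rose by 1.86 ± 0.34. The granzyme and perforin genes Gzma and Prf1 and the factor gene Eomes, which define the cytotoxic cell, were under the filter. Gzma was between 1.9 and 4.05 in naive and 7.12 and 9.99 in treated libraries, Prf1 between 3.76 and 18.0 and between 1.11 and 8.14, and Eomes between 0 and 3.79 and between 0 and 11.2. The summed level of the 5 natural killer markers was 585 to 675 in the naive and 886 to 966 in the treated libraries, and Nkg7, which other cells also express, held 545 to 625 and 754 to 836 of it. The part of any mature natural killer cells was not tested. Of 13 mast cell, basophil and eosinophil genes 4 rose (median 1.26), and with other scalings 3 rose and up to 1 fell. The basophil protease gene Mcpt8 read 27.4, 42.6 and 23.5 in the naive and 169, 149 and 183 in the treated libraries and rose 5.39-fold, and Hdc, which makes histamine, and Ms4a2, an IgE receptor subunit, rose by 1.91 ± 0.26 and 2.16 ± 0.34. Il1rl1, the IL-33 receptor, rose by 1.26 ± 0.36, which did not pass with other scalings (limma adjusted p up to 0.0757). The summed level of the 5 markers of these cells was 348 to 849 in the naive and 1051 to 1464 in the treated libraries. Prg2 held 172 to 597 and 660 to 1055 of it and Cpa3 139 to 187 and 181 to 183. Of the 5 markers 2, Mcpt8 and Ms4a2, passed. Of 11 dendritic cell genes 5 rose. Siglech, a plasmacytoid marker, read 12.2, 20.8 and 7.51 in the naive and 235, 77.5 and 55.5 in the treated libraries and rose by 2.92 ± 0.59, with treated replicate 1 far above the other treated libraries. The C-type lectin gene Clec10a read 47.6, 40.7 and 70.4 in the naive and 229.9, 224 and 228 in the treated libraries, was even across libraries and rose 4.36-fold. Lair1, an inhibitory collagen receptor gene, rose by 0.69 ± 0.10 and Cox6a2 by 1.49 ± 0.27. Of the 12 calls named here, 6 did not pass without naive replicate 1, 1 without naive replicate 2, 1 without naive replicate 3, 2 without treated replicate 1, 9 without treated replicate 2 and 2 without treated replicate 3 (limma adjusted p up to 0.709). With only 1 direction kept, only Il1rl1 was lost, and Siglech ended with a robust prior (limma adjusted p = 0.07).

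Many stem-cell genes fell. Of 35 tested 16 fell, 2 rose and 17 did not pass, with a median of -0.51. Hlf, a transcription factor that marks and maintains stem cells, read 3412, 3009 and 3324 in the naive and 1268, 1308 and 1165 in the treated libraries and fell by 1.38 ± 0.10 (2.61-fold, limma adjusted p = 7.98e-06). Angpt1, whose product angiopoietin acts on Tie2, read 3192, 3058 and 2222 in the naive and 1325, 953 and 863 in the treated libraries and fell 2.72-fold. Robo4, a guidance receptor that helps hold stem cells in the marrow, read 375, 404 and 357 in the naive and 164, 189.5 and 187 in the treated libraries and fell 2.10-fold. The groups were apart in each of these genes. Mecom, which encodes the stem-cell factor EVI1, read 709, 515 and 576 in the naive and 337, 285 and 304 in the treated libraries and fell by 0.95 ± 0.14. Prdm16, Mycn, Fgd5, Abcb1a, Ndn and Cdkn1c were also among the falls. Procr, the endothelial protein C receptor that marks stem cells, read 652, 567 and 659 in the naive and 513, 506 and 485 in the treated libraries and did not pass (-0.32 ± 0.10, limma adjusted p = 0.0581). Slamf1, Abcg2, Tek and Gata2 did not pass either. With upper-quartile or library-sum scaling Procr passed as lower in treated mice. The 2 rises were Nupr1 and Clca3a1, of which at most 1 passed with other scalings. Of 8 tested Hox genes 1 fell (12.5%, against 14.8% called of all tested genes), or 1 to 2 with other scalings. It was Hoxa9, at 2384, 2417 and 2488 in the naive and 1731, 1998 and 1958 in the treated libraries (-0.36 ± 0.09). Hoxa6, Hoxb3 and Hoxb4 had -0.36 ± 0.13, -0.30 ± 0.21 and 0.16 ± 0.17. Hoxa9 did not pass when any 1 of the naive or treated libraries was left out, and Angpt1 and Mecom did not without treated replicate 2 (limma adjusted p up to 0.19). When 1 direction was kept, all 5 falls with a value here passed whichever library was left out.

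Genes tied to rest of stem cells moved both ways: of 22 tested 4 rose and 6 fell (median -0.16), or 2 to 4 and 6 to 7 with other scalings (median -0.30 to -0.25). Txnip, which restrains glucose uptake, read 4274, 2802 and 4652 in the naive and 1799, 1916 and 1860.1 in the treated libraries and fell by 1.04 ± 0.18. Foxo3, a factor that maintains stem cells at rest, and Sesn1, one of its targets, fell by 0.50 ± 0.09 and 0.74 ± 0.11. Klf2 went the other way, at 1939, 4009 and 2012 in the naive and 11601, 9662 and 7854 in the treated libraries, a rise of 1.94 ± 0.24, and naive replicate 2 held the highest naive value. Klf6, Stk11 and Bcl6 were the other rises. Without treated replicate 2 Foxo3, Klf2 and Txnip did not pass and without naive replicate 1 Txnip did not (limma adjusted p up to 0.13), and with 1 direction kept all 4 passed whichever library was left out.

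Lymphoid genes fell in part, and most did not pass. Of 24 tested genes of lymphoid-primed progenitors 6 fell and 1 rose (median -0.12), or 6 to 7 and 0 with other scalings (median -0.27 to -0.22). Ltb, which encodes lymphotoxin β, read 516, 501 and 531 in the naive and 242, 245 and 199 in the treated libraries and fell 2.27-fold, and the lymphocyte survival GTPase gene Gimap6 read 3093, 2846 and 2839 in the naive and 1575, 1477 and 1346 in the treated libraries and fell by 1.0 ± 0.12. Lax1, a lymphocyte adaptor, and Mef2c, a lymphoid transcription factor, fell by 0.53 ± 0.11 and 0.57 ± 0.13. Dntt, which encodes the terminal transferase of early lymphocytes, was the exception at 14087, 15575 and 16026 in the naive and 19354, 23321 and 22887 in the treated libraries (0.52 ± 0.15, limma adjusted p = 0.0425). Il7r, the IL-7 receptor, read 316, 335 and 407 in the naive and 574, 667 and 559.7 in the treated libraries, without overlap, and did not pass (0.77 ± 0.29, limma adjusted p = 0.091). Rag1, the recombinase, read 107, 99.5 and 185 in the naive and 69.2, 113 and 78.8 in the treated libraries, and the groups overlapped. Of 15 B cell genes 2 fell and 1 rose, or 1 to 4 and up to 1 with other scalings. These calls are 20% of that list, against 14.8% of all tested genes. Fcmr, the IgM Fc receptor gene, read 42.6, 43.6 and 41.3 in the naive and 10.2, 10.2 and 6.66 in the treated libraries and fell by 2.15 ± 0.44. Fcer2a (CD23) fell by 1.34 ± 0.41 and the adaptor gene Blnk rose by 0.62 ± 0.16. Igll1, of the surrogate light chain, did not pass (-1.50 ± 0.49, limma adjusted p = 0.0609). Of 11 T cell genes none passed, and up to 2 fell with other scalings. Thy1 (0.53 ± 0.16), Lck (-0.24 ± 0.11), Lat (-0.31 ± 0.14) and Cd2 (-0.89 ± 0.56) came nearest, and Cd3g, of the T cell receptor complex, was under the filter. Summed B cell markers were 908 to 1163 in the naive and 948 to 1028 in the treated libraries and summed T cell markers 504 to 539 in the naive and 415 to 462 in the treated libraries. Of the 8 calls named here, 6 did not pass without naive replicate 1, 3 without naive replicate 2, 2 without naive replicate 3, 1 without EAE replicate 1, 1 without EAE replicate 2, 1 without EAE replicate 3, 3 without treated replicate 1, 7 without treated replicate 2 and 6 without treated replicate 3 (limma adjusted p up to 0.656). With 1 direction kept Blnk, Dntt and Fcer2a were lost, up to 3 at once. Other scalings ended these 3 of the calls named (limma adjusted p up to 0.141), and Fcer2a also ended without the filter, with a pseudocount of 0.1 or with the 6 libraries alone (up to 0.0566).

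Erythroid genes held the 1 gene that set treated mice apart from EAE mice. Car1, the carbonic anhydrase of early erythroid progenitors, read 540.3, 546 and 542 in the naive and 728, 899.9 and 862 in the treated libraries, and 332, 337 and 329 in the EAE libraries. The treated libraries were thus above the naive and the naive above the EAE libraries, with no overlap at any step. Car1 rose by 0.61 ± 0.10 in treated against naive mice (limma adjusted p = 0.00332) and by 1.32 ± 0.10 in treated against EAE mice (limma adjusted p = 0.000516). Car2, a second carbonic anhydrase that stem cells and megakaryocyte progenitors also express, fell by 1.23 ± 0.09, at 8921, 7889 and 8125 in the naive and 3713, 3630 and 3298 in the treated libraries. Tfrc, the transferrin receptor, rose by 0.70 ± 0.09 and Gata1, the master factor of the lineage, by 0.70 ± 0.18, from 55.8, 60.7 and 58.2 to 99.7, 93.8 and 92.2. Cnrip1 fell by 0.89 ± 0.17. In all 5 of 24 tested erythroid genes rose and 3 fell against naive mice (median 0.48), or 2 to 5 and 3 to 4 with other scalings. Klf1, an erythroid factor gene, was under the filter, globin genes were not analysed here, and the summed level of 4 erythroid markers was 89.2 to 129 in the naive and 157 to 201 in the treated libraries. The part of any late erythroid cells was not tested. Of the 5 calls named here, 3 did not pass without naive replicate 1, 1 without naive replicate 3, 1 without treated replicate 1, 4 without treated replicate 2 and 1 without treated replicate 3 (limma adjusted p up to 0.301). With only 1 direction kept, all passed. Gata1 did not pass without scaling or with library sums (limma adjusted p up to 0.11).

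Megakaryocyte and platelet genes split, with 2 rises and 4 falls of 22 tested (median -0.23), or 1 to 2 rises and 4 to 7 falls with other scalings. Selp, which encodes P-selectin and is also known on aged and inflamed stem cells, read 143, 142 and 177 in the naive and 887, 771 and 846 in the treated libraries and rose 5.44-fold (2.44 ± 0.11, limma adjusted p = 3.04e-07). No treated library came near the naive range. Itga2b, which encodes CD41, rose by 0.56 ± 0.11. Mmrn1, which encodes multimerin, read 373, 351 and 317 in the naive and 161, 154 and 144 in the treated libraries and fell 2.26-fold, and Gfi1b and Thbs1 fell as well. The summed level of the 5 megakaryocyte markers was 922 to 981 in the naive and 1092 to 1346 in the treated libraries. Itga2b held 685 to 787 and 1001 to 1183 of it. The other 4, Pf4, Gp9, Gp1bb and Ppbp, lay below the naive range in all treated libraries, as did 22.4% of all tested genes. Platelet content genes did not pass: Pf4 read 131, 132 and 172 in the naive and 114, 88.7 and 55.5 in the treated libraries and Vwf 143, 111 and 146 in the naive and 152, 125 and 128 in the treated libraries. Itga2b was lost without scaling (limma adjusted p = 0.0641), without naive replicate 1 (0.0901) and without treated replicate 2 (0.116).

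Interferon-γ-inducible GTPases, which attack the vacuoles of intracellular microbes, were higher in treated mice in each of the 8 members tested. Of 8 tested 5 rose and none fell (median 0.81). All 8 lay above the naive range in all 3 treated libraries, as did 26.4% of all tested genes. Another 9 of the 17 listed were not analysed here. Igtp read 427, 470 and 491 in the naive and 863, 963 and 886 in the treated libraries and 615, 503 and 592 in EAE libraries, and rose 1.96-fold (0.97 ± 0.11, limma adjusted p = 0.000337). Gbp4 read 126, 121 and 100.5 in the naive and 247, 222 and 248 in the treated libraries and 103, 105 and 199 in EAE libraries, and Gbp2 345, 369 and 338 in the naive and 477, 579.9 and 622 in the treated libraries and 312, 265 and 421 in EAE libraries. For all 3 genes every treated library was above every EAE library. Over all tested genes 16.2% had treated libraries outside the EAE range, on either side. Gbp3 and Gbp5 rose by 0.82 ± 0.10 and 0.81 ± 0.14, and Gbp7 (0.28 ± 0.12), Irgm1 (0.26 ± 0.10) and Gbp9 did not pass. Against EAE mice none of the 8 passed. Igtp had 0.67 ± 0.11, Gbp4 0.88 ± 0.24 and Gbp2 0.77 ± 0.17 (limma adjusted p = 0.243, 0.998 and 0.857), and Gbp3 had 0.00 ± 0.10. Of 36 antiviral genes of the interferon response 11 passed, all higher (median 0.34), and 4 to 7 did with other scalings (median 0.19 to 0.24). Bst2 (tetherin) read 700.4, 741 and 762 in the naive and 1333, 1261 and 1158 in the treated libraries and rose by 0.77 ± 0.09, Oas2, an oligoadenylate synthetase, by 0.90 ± 0.15, Irf7 by 0.57 ± 0.11 and Lgals3bp by 0.48 ± 0.09. The antigen presentation list did not move as one: of 27 tested the immunoproteasome gene Psmb8 rose (0.51 ± 0.13), H2-Q6 (-0.82 ± 0.16), H2-Ob (-0.49 ± 0.13) and H2-Q4 (-0.35 ± 0.09) fell, and the median of 0.10 was -0.05 to 0.00 with other scalings. The share called was 14.8%, the same as over all tested genes. The class II gene H2-Ab1 read 142, 239 and 102 in the naive and 168, 148 and 132 in the treated libraries. Of the 13 calls named here, 8 did not pass without naive replicate 1, 1 without naive replicate 2, 3 without naive replicate 3, 4 without treated replicate 1, 12 without treated replicate 2 and 5 without treated replicate 3 (limma adjusted p up to 0.541). When 1 direction was kept, at most 2 were lost (from Gbp2, H2-Ob, H2-Q4 and Psmb8), and other scalings ended those of Gbp2, Lgals3bp and Psmb8 (limma adjusted p up to 0.135).

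The bases before the start sites of 3 of these GTPase genes are shown because interferon-γ is known to act through GAS elements of such genes. The letters TTCNNNGAA, a palindromic GAS-type motif, were searched on both strands of the same RefSeq windows (GRCm38.p6), and matches are in capitals in the 250 bases before the start site, 5′ to 3′.
Igtp (chr11:58199306-58199555, plus strand): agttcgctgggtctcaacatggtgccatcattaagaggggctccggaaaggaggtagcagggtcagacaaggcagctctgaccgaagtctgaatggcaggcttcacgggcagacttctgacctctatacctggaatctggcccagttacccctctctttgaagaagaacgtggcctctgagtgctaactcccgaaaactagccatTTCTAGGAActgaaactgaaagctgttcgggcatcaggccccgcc
Gbp5 (chr3:142496684-142496933, plus strand): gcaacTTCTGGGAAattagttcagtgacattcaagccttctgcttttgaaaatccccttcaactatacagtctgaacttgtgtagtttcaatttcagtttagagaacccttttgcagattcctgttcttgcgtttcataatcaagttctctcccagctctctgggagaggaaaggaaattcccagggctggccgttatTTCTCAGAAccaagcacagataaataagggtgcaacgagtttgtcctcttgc
Gbp7 (chr3:142530086-142530335, plus strand): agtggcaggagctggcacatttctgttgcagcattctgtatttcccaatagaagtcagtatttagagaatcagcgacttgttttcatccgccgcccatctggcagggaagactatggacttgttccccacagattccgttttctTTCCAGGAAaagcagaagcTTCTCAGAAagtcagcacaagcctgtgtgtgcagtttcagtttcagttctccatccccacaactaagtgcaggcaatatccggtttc
The match began 45 bases before the start site in Igtp, 245 and 52 bases before it in Gbp5, and 106 and 87 in Gbp7. Of 7 windows for 6 of the 8 tested genes 3 held the motif (42.9%), against 8.3% of all 32851 windows and 7.62% of windows of tested genes. Gbp2, Gbp3 and Irgm1 had no match in their windows. With the motif Igtp and Gbp5 rose and Gbp7 did not pass, and without it Gbp2 and Gbp3 rose and Irgm1 did not pass. Among granule genes 2 of 11 windows held it (18.2%).

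**Figure D4:**
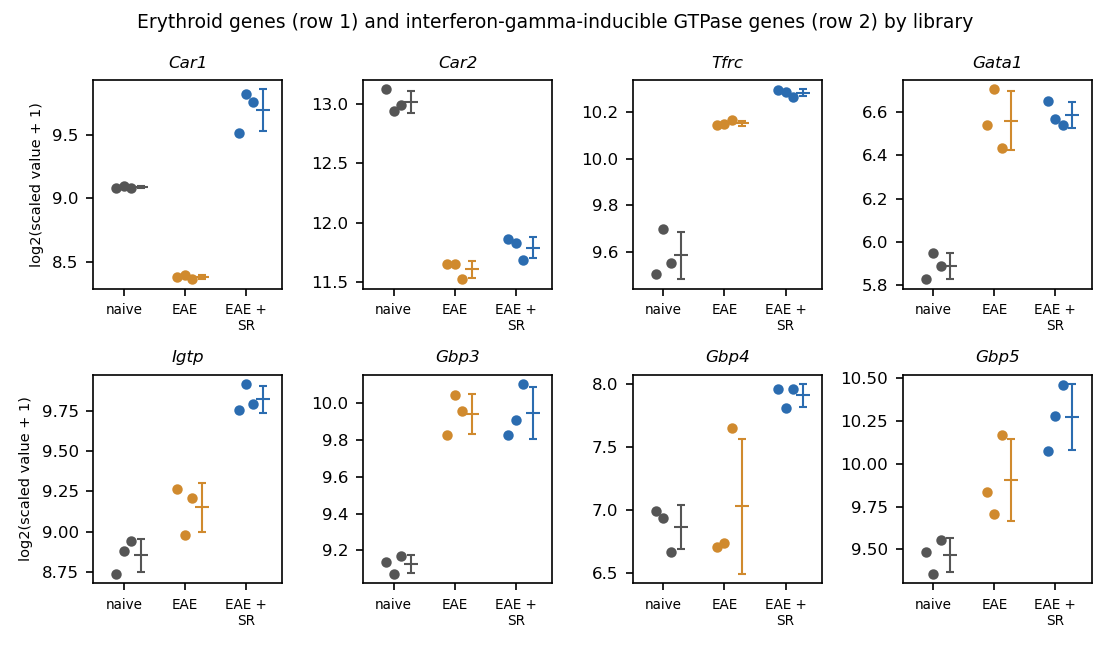
Points are single libraries on log2(scaled value + 1), with the mean and standard deviation beside them (n = 3), and vertical ranges that differ between panels and do not start at 0. Car1 is lowest in EAE and highest in treated libraries, and the treated libraries of Igtp and Gbp4 lie above both other groups, while Gbp3 is alike in EAE and treated libraries.

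Innate sensing and cytokine signalling genes rose in part. Of 40 tested Toll-like receptor, IL-1 and NF-kB genes 12 rose and none fell (median 0.17), and with other scalings 7 to 9 rose and up to 1 fell (median 0.03 to 0.08). Tlr9, the sensor of bacterial DNA, read 45.6, 37.0 and 58.2 in the naive and 129, 141 and 147 in the treated libraries and rose 2.97-fold. Myd88, the adaptor of most Toll-like receptors, read 493, 515 and 574 in the naive and 777, 842 and 861 in the treated libraries and rose by 0.65 ± 0.10, and the NF-kB cofactor gene Bcl3 read 143, 136 and 197 in the naive and 387, 381 and 355 in the treated libraries and rose 2.38-fold. Tlr2, Tlr4, Il1r1, Tnf and Il1b did not pass. Of 33 cytokine receptor, STAT and SOCS genes 9 rose and 3, with Kit and Stat4 among them, fell (median 0.23). Other scalings gave 4 to 6 rises, 3 to 5 falls and a median of 0.09 to 0.14. Lifr, the leukaemia inhibitory factor receptor, read 52.7, 53.1 and 64.8 in the naive and 273, 227 and 205 in the treated libraries and rose 4.09-fold, and its partner Il6st, which encodes gp130, rose by 0.70 ± 0.18. Socs3, a feedback inhibitor induced by STAT3, read 6.08, 8.53 and 5.63 in the naive and 41.7, 27.5 and 27.8 in the treated libraries and rose 4.30-fold, and Stat3 rose by 0.42 ± 0.09. Il4ra, the IL-4 and IL-13 receptor chain, read 2507, 2902 and 2424 in the naive and 4155, 4467 and 5215 in the treated libraries and rose by 0.82 ± 0.12. Of the 8 calls named here, 4 did not pass without naive replicate 1, 1 without naive replicate 2, 7 without treated replicate 2 and 2 without treated replicate 3 (limma adjusted p up to 0.593). If 1 direction was kept, only Il6st was lost, as with a robust prior (limma adjusted p = 0.0709). Il6st and Stat3 did not pass without scaling or with library sums (limma adjusted p up to 0.117).

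The gene of the receptor that SR59230A blocks was near 0 in these cells. Adrb3, which encodes the β3-adrenergic receptor, read 4.05, 5.69 and 7.51 in the naive, 4.07, 5.10 and 3.33 in the treated and 2.71, 0 and 2.08 in the EAE libraries, under the filter, so it was not tested. Adrb1, the β1-adrenergic receptor gene, read 19.3, 10.4 and 19.7 in the naive and 3.05, 5.10 and 7.77 in the treated libraries and did not pass (-1.49 ± 0.48, limma adjusted p = 0.0588). Of 34 tested receptor and cAMP signalling genes 1 rose and 5 fell (median -0.05), and 3 to 9 fell with other scalings (median -0.19 to -0.14). These calls are 17.6% of the list, near the 14.8% called of all tested genes. Arrb1, which encodes β-arrestin, read 1166, 1008 and 1186 in the naive and 720.1, 839 and 894 in the treated libraries and fell by 0.46 ± 0.12. Rgs18, a brake on G-protein signals, fell by 0.50 ± 0.09 and the adenylyl cyclase gene Adcy9 by 0.45 ± 0.12, with Adcy3 and Adcy6 the others. Prkar2a, a regulatory subunit of protein kinase A, rose by 0.47 ± 0.13, a call lost with other scalings (limma adjusted p up to 0.138). Of 26 genes induced by cAMP or as immediate-early genes 4 rose and 1 fell (median 0.39, 19.2% called). Gem, a GTPase of that class, read 526, 664 and 378 in the naive and 193, 169 and 149.9 in the treated libraries and fell 3.00-fold. Nfil3 and Ier3 rose by 0.91 ± 0.16 and 0.72 ± 0.16. Atf3 read 117, 735 and 50.7 in the naive and 1823, 892 and 789.6 in the treated libraries and rose by 2.73 ± 0.75, and Fos read 10706, 18254 and 7105 in the naive and 26334, 15820.2 and 13678 in the treated libraries and did not pass. In both genes naive replicate 2 was the highest naive library and treated replicate 1 the highest treated one. Of the 8 calls named here, 7 did not pass without naive replicate 1, 2 without naive replicate 2, 3 without naive replicate 3, 5 without treated replicate 1, 8 without treated replicate 2 and 3 without treated replicate 3 (limma adjusted p up to 0.45). With 1 direction kept at most 3 were lost, from Adcy9, Arrb1, Atf3 and Prkar2a, and Atf3 ended with a robust prior (limma adjusted p = 0.224).

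Of 15 glucocorticoid-responsive and metallothionein genes 4 rose (median 0.25). Mt1, a zinc-binding metallothionein of the acute phase, read 71.0, 88.1 and 91.1 in the naive and 430.3, 422 and 422 in the treated libraries and rose 5.10-fold. Fkbp5, a glucocorticoid receptor co-chaperone, read 1342, 1325 and 1393 in the naive and 1903, 1993 and 2056 in the treated libraries and rose by 0.55 ± 0.09, and Ddit4, a stress-induced inhibitor of mTORC1, rose by 0.78 ± 0.18. Tsc22d3, Per1 and Sgk1, of the same class, did not pass. Among 27 genes of marrow retention and adhesion 5 rose and 3 fell, with a median of 0.07 that was -0.07 to -0.02 with other scalings. Cxcr4, the receptor of the niche chemokine CXCL12, read 1631, 1821 and 1696 in the naive and 2591, 2624 and 2561 in the treated libraries and rose by 0.60 ± 0.08. Integrin genes Itga4, Itga5 and Itgb1 and the egress receptor gene S1pr1 did not pass, and Robo4, Kit and Adgrg1 were the falls. Without treated replicate 2 Cxcr4, Ddit4 and Fkbp5 were lost (limma adjusted p up to 0.145), and Ddit4 also without naive replicate 1 (0.0632) or treated replicate 3 (0.101) or with a robust prior (0.0523).

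Genes of division rose in part, by small amounts. Of 49 tested DNA replication genes 12 rose and none fell (median 0.28), and 14 of 38 G2/M genes were higher, with no falls (median 0.29). With other scalings these counts were 3 to 8 and 4 to 7. Of all genes with a mean of at least 500, 22.6% were called, with a median of 0.13. Rrm2, a subunit of ribonucleotide reductase, read 702, 639.7 and 766 in the naive and 1368, 1351 and 1443 in the treated libraries and rose 1.98-fold. Rfc5 of the clamp loader, Gins1 of the replicative helicase and the thymidylate synthase gene Tyms rose by 0.59 ± 0.09, 0.68 ± 0.11 and 0.59 ± 0.12. The mitotic genes Cdca3, Birc5, Plk1 and Kif20a rose by 0.65 ± 0.09, 0.57 ± 0.09, 0.64 ± 0.11 and 0.61 ± 0.12. Mki67, which encodes the Ki-67 antigen, read 1870.2, 1844 and 1989 in the naive and 2287, 2169.6 and 2067 in the treated libraries and did not pass (0.19 ± 0.10, limma adjusted p = 0.203). Of 22 p53 target and Bcl2 family genes 2 rose, Aen (0.71 ± 0.11) and Bak1 (0.39 ± 0.12), or 1 with other scalings. Those 2 are 9.09% of that list, under the 14.8% called of all tested genes. Cdkn1a, which encodes the cell cycle inhibitor p21, read 908, 2077 and 649.9 in the naive and 2013, 1916 and 2123 in the treated libraries, and Gadd45b 376, 536 and 270.5 in the naive and 873, 567 and 527 in the treated libraries, with overlap in both. Of the 10 calls named here, 5 did not pass without naive replicate 1, 1 without naive replicate 2, 1 without naive replicate 3, 1 without EAE replicate 2, 1 without treated replicate 1, 9 without treated replicate 2 and 1 without treated replicate 3 (limma adjusted p up to 0.679). When 1 direction was kept, only Bak1 was lost. Tyms did not pass without scaling and Bak1 not with any other scaling (limma adjusted p up to 0.294), without the filter or with a pseudocount of 0.1.

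Most of the tested protein folding genes rose: 16 of 25 tested genes of the unfolded protein response rose and none fell (median 0.62), and with other scalings 10 to 13 rose and up to 1 fell. Sdf2l1, an endoplasmic reticulum chaperone component, read 286, 476 and 316 in the naive and 1015, 1032 and 929.5 in the treated libraries and rose 2.83-fold. Manf, a secreted stress-response protein of that organelle, read 1715, 2203 and 1699.8 in the naive and 3491, 3626 and 3718 in the treated libraries, and the disulfide isomerase gene Pdia3 read 3360.3, 3255 and 3463 in the naive and 5626, 5431 and 5485 in the treated libraries. Manf, Pdia3 and Pdia4 rose by 0.96 ± 0.12, 0.72 ± 0.09 and 0.89 ± 0.12. Hspa5, which encodes the chaperone BiP, read 5121, 10520 and 5264 in the naive and 11193, 12176 and 10178 in the treated libraries. Naive replicate 2 lay within the treated range, and the call (limma adjusted p = 0.0485) ended with each other scaling, a filter at 50, a pseudocount of 0.1, a robust prior or the 6 libraries alone (up to 0.202). The stress transcription factor genes Atf4, Ddit3, Xbp1 and Trib3 did not pass. Of 14 cytosolic chaperone genes 8 rose and none fell (median 0.45), or 4 to 8 with other scalings. Hsph1 read 1036, 1548 and 1282 in the naive and 2484, 3133 and 2825 in the treated libraries and rose 2.21-fold, and Hspa4, Hspe1 and the chaperonin gene Cct5 rose by 0.55 ± 0.09, 0.63 ± 0.11 and 0.53 ± 0.10. Hspa1a, Hspa1b and Hsf1 did not pass. Of the 9 calls named here, 3 did not pass without naive replicate 1, 1 without naive replicate 3, 1 without EAE replicate 2, 1 without treated replicate 1, 8 without treated replicate 2 and 1 without treated replicate 3 (limma adjusted p up to 0.657). If 1 direction was kept, only Hspa5 was lost, and without scaling Hspe1 was lost too.

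Some genes of ribosome assembly and energy supply rose, by small amounts. Beside them, all genes with a mean of at least 500 had 22.6% called and a median of 0.13. Of 31 ribosome biogenesis genes 16 rose and none fell (median 0.34). Nop2 and Ddx21, which act in ribosomal RNA processing, rose by 0.59 ± 0.09 and 0.51 ± 0.09, and Nop16 and Heatr1 by 0.62 ± 0.12 and 0.47 ± 0.10. Myc, which drives this programme, read 3773, 4028 and 3768 in the naive and 6063, 5219.7 and 4819.7 in the treated libraries and rose by 0.47 ± 0.11. With other scalings 2 to 11 of the list passed, and Heatr1, Myc and Nop16 did not without scaling (limma adjusted p up to 0.13). Oxidative phosphorylation had 25 rises and no falls among 63 genes (median 0.34), and 5 to 17 did with other scalings. Cox5a of complex IV, Atp5k of the ATP synthase, and Ndufv2 and Ndufb9 of complex I rose by 0.66 ± 0.10, 0.80 ± 0.13, 0.54 ± 0.09 and 0.63 ± 0.11. Of 24 glycolysis and hypoxia genes 7 rose (median 0.22), and with other scalings 2 to 4 rose and up to 2 fell (median 0.07 to 0.12). Ldha, lactate dehydrogenase A, read 4834, 6410 and 5008 in the naive and 10359, 10327 and 10135 in the treated libraries and rose 1.91-fold, and Pfkp, Hk2 and the myeloid hexokinase gene Hk3 rose by 0.53 ± 0.10, 0.42 ± 0.10 and 0.63 ± 0.14. Slc2a1, Pdk1 and Bnip3 did not pass. Of 29 lysosome and proton pump genes 9 rose (median 0.20), or 3 to 6 with other scalings (median 0.05 to 0.11), such as Ctsz (1.0 ± 0.10), Npc2 (0.77 ± 0.10), Lamp2 (0.60 ± 0.09) and Hexa (0.57 ± 0.11). Of 29 cholesterol and fatty acid synthesis genes 4 rose, Fads2 (0.69 ± 0.11), Ebp (0.49 ± 0.13), Hmgcs1 (0.53 ± 0.15) and Sqle (0.55 ± 0.16), and 1 did with any other scaling. Those 4 are 13.8% of that list, against 14.8% called of all tested genes. For the last 4 groups, of the 16 calls named here, 9 did not pass without naive replicate 1, 2 without naive replicate 2, 3 without naive replicate 3, 3 without treated replicate 1, 14 without treated replicate 2 and 5 without treated replicate 3 (limma adjusted p up to 0.675). For ribosome assembly, of the 5 calls named here, 4 did not pass without naive replicate 1, 1 without treated replicate 1 and 5 without treated replicate 2 (limma adjusted p up to 0.369). Hk2, Pfkp and Hexa were among those lost without scaling (limma adjusted p up to 0.169). With only 1 direction kept, Ebp, Hmgcs1 and Sqle were lost, no more than 3 at once.

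Some large changes were in genes outside these groups. Dmkn, which encodes the secreted protein dermokine, read 1.01, 1.9 and 0.939 in the naive and 94.6, 83.6 and 131 in the treated libraries. Its log2 fold change of 5.52 ± 0.36 depends on the pseudocount. Tmem215 read 5.07, 13.3 and 5.63 in the naive and 124, 115 and 149.9 in the treated libraries and rose by 3.98 ± 0.34. Among the most significant rises were Emilin2, an extracellular matrix gene (2.10 ± 0.12), the Rab GTPase gene Rab44 (2.11 ± 0.12) and Vldlr, a lipoprotein receptor (1.87 ± 0.10), with limma adjusted p = 1.02e-06. Gria2, a subunit of the AMPA glutamate receptor, read 246, 196 and 196 in the naive and 15.3, 19.4 and 16.7 in the treated libraries and fell 11.9-fold (limma adjusted p = 7.38e-06). Gcsam, a germinal centre signalling gene, read 123, 109.9 and 100.5 in the naive and 26.4, 22.4 and 17.8 in the treated libraries and fell 4.89-fold, and Sytl4, a granule docking gene, read 435, 342 and 416 in the naive and 119, 149 and 159 in the treated libraries and fell 2.80-fold. Lhcgr, the luteinizing hormone receptor reported on stem cells, read 172, 147 and 120.2 in the naive and 63.1, 45.9 and 42.2 in the treated libraries and fell 2.89-fold. Slc27a6, Osgin1, Bgn, BC016579 and Cadps2 fell between 2.49-fold and 2.83-fold. Of the 14 calls named here, 4 did not pass without naive replicate 1 and 5 without treated replicate 2 (limma adjusted p up to 0.283). All of the lost calls were falls. Macrophage and endothelial genes were low and uneven. The median of all tested genes with a mean under 20 was -0.54. None of 8 tested macrophage genes passed: Adgre1 (F4/80) had 1.54 ± 0.50, Spic, a red pulp macrophage factor gene, -1.86 ± 0.64 and Hmox1 -0.66 ± 0.38. Vcam1 read 39.5, 4.74 and 63.9 in the naive and 9.15, 6.11 and 4.44 in the treated libraries. Of 14 endothelial and stromal genes Pdgfrb rose, Sele and Emcn fell and Pecam1 did not pass (0.45 ± 0.14) (median -1.21). Sele, which encodes E-selectin, read 24.3, 11.4 and 62.0 in the naive and 0, 3.06 and 2.22 in the treated libraries, and Cdh5, which encodes VE-cadherin, 35.5, 19.0 and 123 in the naive and 5.09, 18.3 and 11.1 in the treated libraries, with naive replicate 3 highest in both. The call of Sele ended with a pseudocount of 0.1 (limma adjusted p = 0.0643). Of the 3 calls named here, 3 did not pass without naive replicate 1, 1 without naive replicate 2, 3 without naive replicate 3, 3 without treated replicate 1, 3 without treated replicate 2 and 2 without treated replicate 3 (limma adjusted p up to 0.455). Emcn and Pdgfrb were lost in 2 of the fits that kept 1 direction, and Pdgfrb ended with each other scaling (limma adjusted p up to 0.266). Summed macrophage markers were 12.3 to 45.1 in the naive and 19.3 to 30.6 in the treated libraries and summed endothelial and stromal markers 2245 to 3008 in the naive and 3012 to 3505 in the treated libraries. Pecam1, which blood progenitors also express, held 2164 to 2791 and 2993 to 3458 of that sum. Cdh5, Kdr and Col1a2 lay below the naive range in all treated libraries, as did 22.4% of all tested genes.

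**Figure D5:**
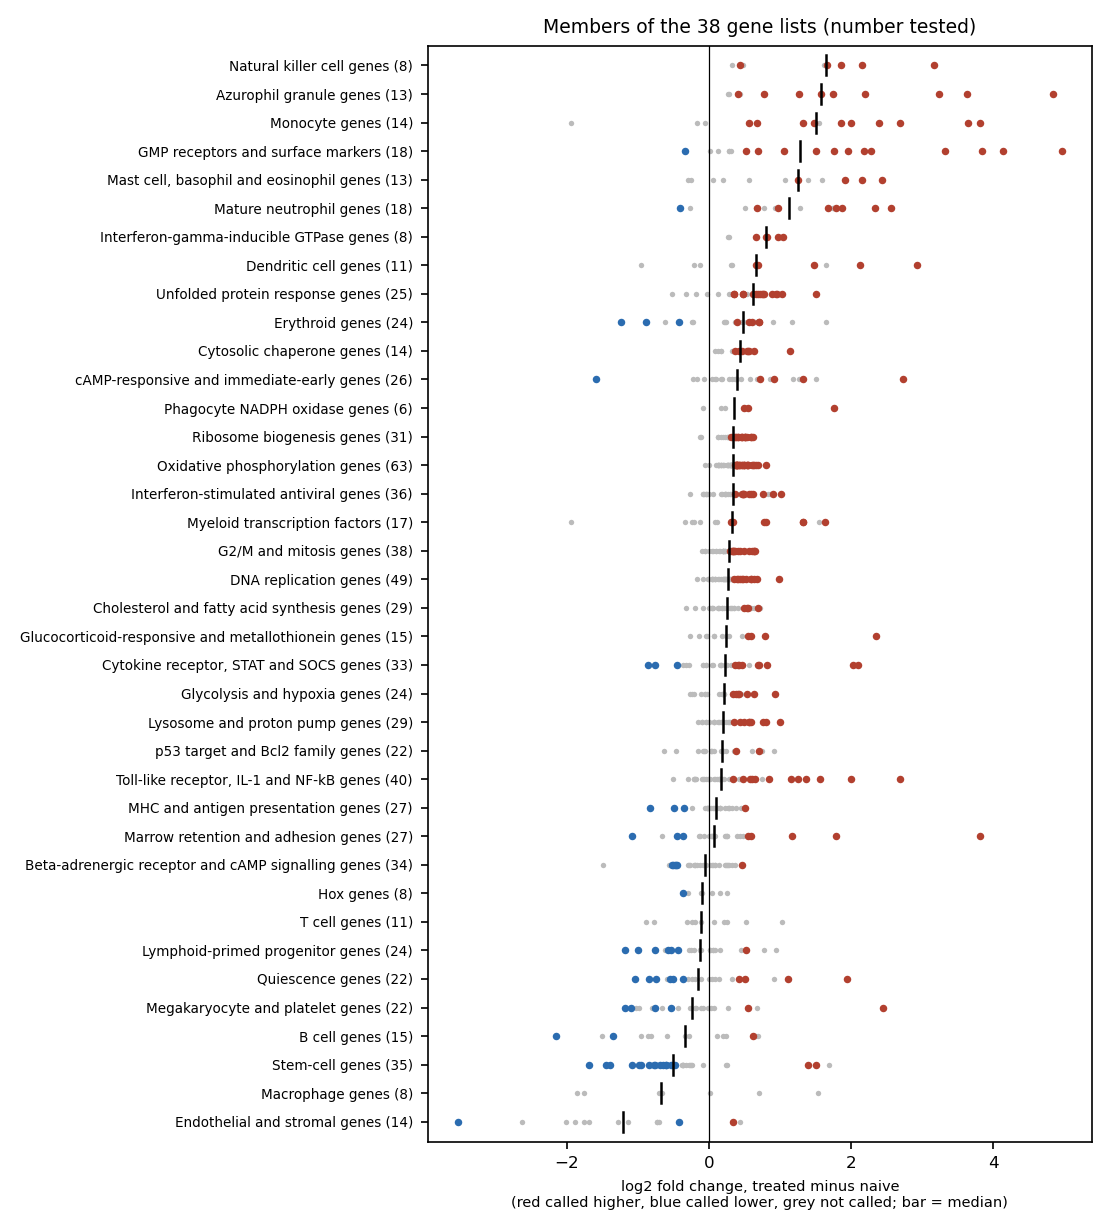
Each point is a tested member of a gene list at its log2 fold change in treated minus naive mice, red where called higher, blue where called lower and grey where not called, and the black bar is the median of the list. Natural killer, azurophil granule and monocyte genes have medians above 1.5, stem-cell genes a median of -0.51, and all 16 unfolded protein response genes that passed are higher.

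How far the treated libraries differ from immunized mice without the antagonist was tested in the same fit. Car1 was the 1 gene of 13018 that passed (0.00768%), while 504 had an unadjusted p under 0.05 (3.87%) and for 2105 (16.2%) the treated libraries lay outside the EAE range. The median 95% interval of a treated-minus-EAE log2 fold change reached 0.32 to either side. That interval is not adjusted for the number of genes, and larger differences, such as those of Igtp and Gbp4, did not pass. Treated and EAE mice are both set against the same 3 naive mice, so their 2 sets of changes are not independent and are given only side by side. EAE against naive called 1853 genes (14.2%), 1189 higher (9.13%) and 664 lower (5.1%). Ms4a3 rose by 4.96 ± 0.15 in treated and 5.30 ± 0.15 in EAE against naive mice, Ccr2 by 3.82 ± 0.14 and 4.13 ± 0.14, and Irf8 by 1.64 ± 0.15 and 1.15 ± 0.16. Hlf had -1.38 ± 0.10 and -1.48 ± 0.10, Flt3 -0.27 ± 0.10 and -0.44 ± 0.10, and Rag1 -0.56 ± 0.40 and -1.54 ± 0.40. The direct difference was 0.49 ± 0.16 for Irf8, 0.99 ± 0.40 for Rag1 and 0.81 ± 0.29 for Il7r, none of which passed. Lists differed in how many members lay on the treated side of EAE mice. All 24 lymphoid-primed genes, all 15 B cell genes, all 27 antigen presentation genes, all 8 interferon-γ GTPase genes and 22 of 24 erythroid genes had a positive treated-minus-EAE value, with medians of 0.22, 0.44, 0.18, 0.52 and 0.42, against 0.01 over all genes. These lists had the largest positive shares of the 38, and over all genes 6833 of 13018 were positive. In other lists fewer were, such as 15 of 49 DNA replication, 12 of 38 G2/M and 14 of 31 ribosome biogenesis genes. Members of a list share their libraries, EAE replicate 2 stood apart on the third principal component (-36.0) and was lowest of the 9 libraries for Il7r and Rag1, and no member of these lists but Car1 passed, so these counts describe these libraries only. Natural killer genes had a median of 0.92 and granule genes one of -0.10. Car1 did not pass against EAE mice without treated replicate 2 or with the chemosensory share as a covariate, where 0 genes passed, and it was the 1 gene called in each of the other alternatives that included the EAE libraries.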

How the data were processed

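LSK cells were sorted from 9 mice and RNA was extracted with the RNeasy micro kit, per the labels' protocols. The deposited table holds 14940 gene symbols. Its whole numbers are an adjusted score made by the authors, not counts of reads. Among 4577 genes whose mean reached 500, the natural log of (value + 1) had 2.75% to 60.5% of its variance on each of components 1 to 6 but 7.65e-05% and 6.77e-05% on components 7 and 8, so 2 directions between libraries are missing. DESeq2 is named without a role or version per the submitters' processing notes. The aligner, counting tool, strand setting and build were not given in the sources used here. Overlapping and near-identical genes are therefore uncertain. Because the values look adjusted, no count model was used.

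Scaling used median-of-ratios size factors, which ran from 0.9005 to 1.107. The 13018 genes that reached a deposited value of 10 in 3 libraries were tested, with log2(value + 1) fitted with limma-trend (limma 3.58.1, R 4.3.3) on all 9 libraries, with group coefficients and the 2 missing directions as covariates (4 residual and 7.52 prior degrees of freedom). Tests were 2-sided, p-values were adjusted after Benjamini and Hochberg, and 0.05 was the threshold. An error after ± is the SE of the log2 fold change unless given as SD. A fold is on the log2(value + 1) scale and understates changes of low genes. An exact permutation test of 3 against 3 libraries cannot go below p = 0.1. The labels call the libraries separate mice. No 2 libraries were duplicates. The test was tried on simulated data before use.

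The comparison, its 38 gene lists (1031 entries, of which 121 are not analysed here) and the tests were chosen with earlier results of these data known. Named were, by rule, the 12 largest called changes each way with a mean of at least 100 in the higher group and no overlap, up to 4 genes of smallest adjusted p in each list, the gate and adrenergic genes, Car1, genes called against EAE, called genes near 0 (a mean under 5) in 1 group and at least 50 in the other, and the 10 smallest adjusted p. Some genes that the rule names are not reported here. Other named genes were chosen after their values were seen. Alternatives were other scalings, filters, pseudocounts and covariates, a robust prior, 6 libraries alone and each library left out. Keeping 1 missing direction when a library was left out was added after seeing the data.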

Additional observations from a re-analysis of the deposited data

How the results depend on the processing

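The reported 1932 calls (1332 higher and 600 lower) became 1073 without scaling (489 higher), 3920 with group coefficients alone (2303 higher and 1617 lower) and 18 with the chemosensory share as a covariate (14 and 4, all at least 2-fold). Calls higher and lower were 835 and 954 with upper-quartile and 654 and 1266 with library-sum scaling. Falls of at least 2-fold, 169 as reported, were 285 with library-sum scaling, 72 with a filter at 50 and 451 with group coefficients alone. Leaving out 1 library gave 148 to 2229 calls, 121 to 1548 higher and 27 to 681 lower, with 91 to 249 rises and 20 to 171 falls of at least 2-fold. With 1 missing direction kept the ranges were 1230 to 3324, 908 to 2090, 322 to 1234, 200 to 270 and 91 to 360. Against EAE mice 1 gene passed, Car1, and 0 passed with the chemosensory covariate or without treated replicate 2 (range 0 to 1). No call changed sign except under the chemosensory covariate, where 171 did and these named genes had a log2 fold change of opposite sign, none of which passed: Siglech -3.07, Blnk -0.021, Fcer2a 0.23, Arrb1 0.49, Ier3 -0.21, Klf4 -2.29, Socs3 -0.032, Tyms -0.29, Emcn 0.067, Sele 2.6, Hoxa9 0.010, Klrk1 -0.74, Klf2 -0.32, Ly6a -0.16, Atf3 -3.97, Cx3cr1 -0.46, Hspa5 -0.48 and Myc -0.27. In the covariate fit the SE was 3.63 times as large by construction, and the cause of other changes was not tested. No paired analysis was possible because the titles of the groups share too few numbers. Depth is unknown, so precision rests on 3 libraries a group.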
